A study of Mus musculus with 21 samples.

Results

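The skin of UV-irradiated hairless mice was compared between the first and the second week of irradiation, with the question of what the second week adds. The comparison held 6 of the 21 arrays of the study, 3 titled UV week 1 (arrays 112, 114 and 116) and 3 titled UV week 2 (arrays 222, 224 and 225), and the arrays were chosen by title alone. All mice were female albino hairless Hos:HR-1 mice, 6 weeks old at purchase and then acclimatised for 1 week, and total RNA of skin was measured on Affymetrix mouse expression arrays. UV week 1 mice received 1 minimal erythema dose (MED, 100 mJ per square cm) of lamp UV per exposure, and UV week 2 mice, 1 week older, received 2 MED per exposure, with 3 exposures in a week. The other arrays came from non-irradiated mice of weeks 1 and 8 and from UV weeks 4, 6 and 8, with 3 arrays in each group. No non-irradiated week 2 group was analysed here, so the dose, the number of exposures and the age of the mice cannot be told apart in this step. The study's methods put 3 mice in a group, for fewer groups than the arrays hold, and the labels do not tie each array to a mouse, so the p-values measure the spread between arrays.

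Skin is a mixture of tissues. Keratinocytes of the epidermis make keratins and cornify, and keratinocytes of the growing hair follicle make hair keratins together with the keratin-associated proteins, small proteins rich in cysteine or in glycine and tyrosine that crosslink the keratin filaments of the hair shaft. Hairless mice shed their first coat, yet their follicle remnants can still express these genes. The dermis holds fibroblasts, which make collagen and the metalloproteinases that cut it, and mast cells, which store tryptases, chymases and histamine and lie near vessels. UV is known to provoke thickening of the epidermis, inflammation and matrix breakdown in skin. In bulk RNA, fewer cells of a type and less RNA per cell cannot be told apart, and this holds for every gene below.

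The samples read as skin. Krt10, a keratin of the differentiating epidermis, lay between 14.03 and 14.45 on the log2 intensity scale on the 6 arrays, and Col3a1, a dermal collagen, between 14.37 and 14.75. The basal keratins varied more. Krt5 read 10.55, 10.66 and 12.45 on the week 1 arrays and 12.30, 13.23 and 12.93 on the week 2 arrays.

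Array 116 stood apart from its own group. Its mean correlation across probe sets was 0.9827 with the other week 1 arrays and 0.992 with the week 2 arrays, whereas arrays 112 and 114 correlated at 0.9864 and 0.987 with their own week and at 0.9712 and 0.974 with week 2. The log2 ratio of the beta-actin probe sets at the 3' and 5' ends of the transcript, a measure of RNA quality that rises with shorter RNA or cDNA, was 4.88, 4.39 and 2.71 on arrays 112, 114 and 116. The same ratio was 3.30, 2.26 and 2.99 on the week 2 arrays, so it moved with the week through arrays 112 and 114. The part of this ratio in the results below was not tested directly, and values with array 116 left out, with the ratio as a covariate or without the arrays of high ratio (log2 above 4) are given beside the main lists whose median they move by over 1.5 times. Without the arrays of high ratio, array 116 was the only week 1 array left, so those medians set it alone against week 2. Leaving out array 116 instead removes the week 1 array most like week 2 and keeps arrays 112 and 114, both of high ratio. The week and the ratio cannot be told apart in that setting. Adjusted p values given below without array 116 are therefore no separate evidence. The medians of the smaller lists named last also shift with these settings, as their plot shows.

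Few probe sets passed the test. With limma fitted to all 21 arrays, 3 of 40540 probe sets (0.0074%) rose at least 2-fold from UV week 1 to UV week 2 with a limma adjusted p (Benjamini-Hochberg) no larger than 0.05, and 1 (0.00247%) fell. At an unadjusted p under 0.05, 4465 probe sets (11%) were higher and 4482 (11.1%) lower. Without array 116 the calls were 437 higher (1.08%) and 78 lower (0.192%), and with limma's array weights they were 1488 higher (3.67%) and 165 lower (0.407%). Read at 1 probe set for each of 17403 genes, 2453 genes (14.1%) had all 3 week 2 arrays above all 3 week 1 arrays and 2516 (14.5%) had all of them below. Of these, 228 (1.31%) were at least 2-fold higher and 90 (0.517%) at least 2-fold lower. The median difference over all genes was -0.05.

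**Figure D1:**
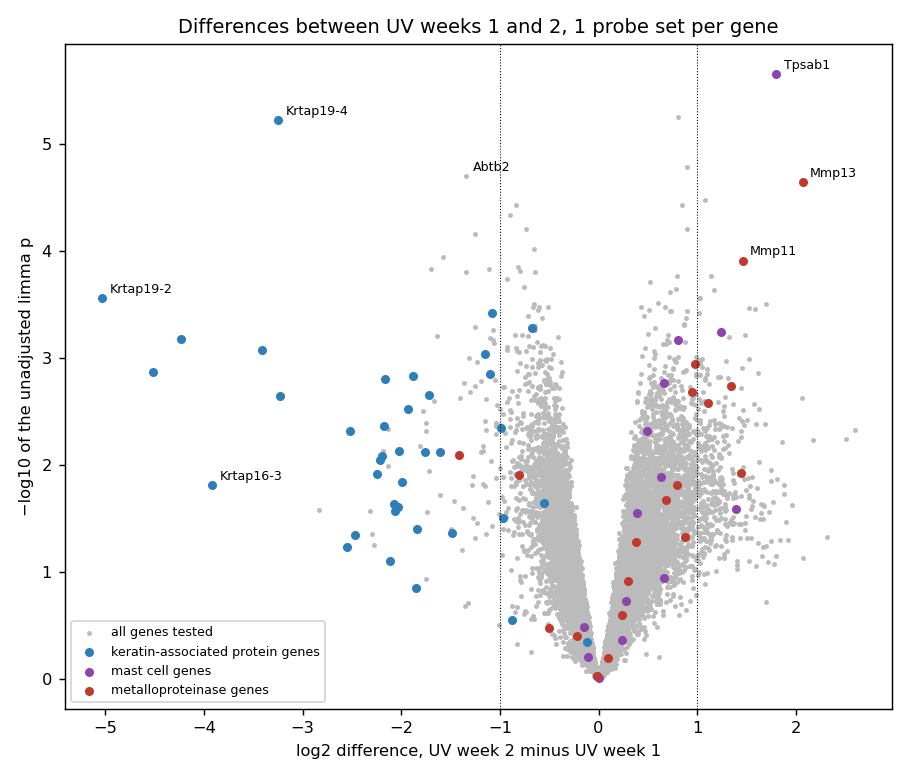
Each point is a gene at its brightest probe set, with the log2 difference of UV week 2 minus UV week 1 on the x axis and the -log10 of the unadjusted limma p on the y axis; keratin-associated protein genes are blue, mast cell genes purple and metalloproteinase genes red, and dotted lines mark a 2-fold difference. Krtap19-4 at -3.25 and Tpsab1 at 1.80 lie high on opposite sides.

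The called genes were a tryptase that rose and a keratin-associated protein that fell. Tpsab1, a mast cell tryptase, read 4.63, 4.81 and 5.49 on the week 1 arrays and 6.39, 6.51 and 7.44 on the week 2 arrays. All 3 week 2 arrays lay above all 3 week 1 arrays, and the difference was 1.80 (SE 0.267, 3.49-fold, adjusted p = 0.0447, limma). Krtap19-4, a glycine-tyrosine-rich keratin-associated protein, read 8.70, 8.03 and 7.65 in week 1 and 5.73, 4.04 and 4.87 in week 2. The groups did not overlap, and the difference was -3.25 (SE 0.518, 9.49-fold lower, adjusted p = 0.0479). The week 2 values of Krtap19-4 and the week 1 values of Tpsab1 lie near the lower end of the intensities, where a fold is less exact.

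Both other probe sets that rose are assigned to several genes by the array annotation, and no gene is named for them. Probe set 1450618_a_at read 7.63, 7.003 and 7.75 in week 1 and 8.87, 10.93 and 10.75 in week 2 (2.72, SE 0.399, adjusted p = 0.0447). Probe set 1439016_x_at read 9.94, 8.21 and 8.96 and then 10.79, 12.40 and 12.00 (2.70, SE 0.415, adjusted p = 0.0479). Both were lowest on array 222 within week 2. Cxcl16, a chemokine made by myeloid cells and keratinocytes that attracts CXCR6-bearing lymphocytes, passed the adjusted p (0.0479) without reaching 2-fold, which brought the probe sets higher at that p alone to 4 (0.00987%). Its values were 7.59, 7.29 and 7.53 in week 1 and 8.19, 8.11 and 8.52 in week 2, a difference of 0.81 (SE 0.128).

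The calls rested on few arrays. Over 14 other settings of the test, Tpsab1 stayed called in 7 and Krtap19-4 in 5, while both differences kept their direction, from 1.29 to 2.06 for Tpsab1 and from -3.67 to -2.71 for Krtap19-4. Without array 116 both were called, at adjusted p = 0.0131 and 0.0384. Without array 225 neither was, with adjusted p = 0.27 for each.

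The keratin-associated protein genes were lower across the family. All 38 measured genes with a Krtap symbol had a lower mean in week 2, 35 of them with no overlap between the weeks (14.5% of all genes), and 32 were at least 2-fold lower (0.58% of all genes). Only Krtap19-4 passed the test (0.00575% of all genes), and 33 had an unadjusted p under 0.05. The median difference over the 38 genes was -2.03, from -5.03 for Krtap19-2 to -0.12 for Krtap13, against -0.05 over all genes. Without array 116 the median was -2.0 and 5 of the 38 genes were called lower (0.27% of all genes). With the beta-actin ratio as a covariate the median was -1.67, and without the arrays of high ratio it was -1.85. Probe sets of near-identical family members can share transcripts, so the genes are not independent measurements.

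Sequence upstream of these genes is shown because the members moved together. The letters are the 90 bases before the annotated start in RefSeq on build GRCm38.p6, read 5' to 3' on the gene's strand. TATAAA, the TATA box motif that places the start of transcription, is in capitals.

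Krtap16-3: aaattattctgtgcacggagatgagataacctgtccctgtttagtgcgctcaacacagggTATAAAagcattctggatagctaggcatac
Krtap6-3: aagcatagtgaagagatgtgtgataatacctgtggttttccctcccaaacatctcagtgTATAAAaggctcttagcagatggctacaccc
Krtap4-2: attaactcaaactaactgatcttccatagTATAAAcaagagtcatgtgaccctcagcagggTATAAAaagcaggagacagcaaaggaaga
Krtap9-3: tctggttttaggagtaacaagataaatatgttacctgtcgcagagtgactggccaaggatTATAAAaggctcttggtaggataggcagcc
Krtap19-4: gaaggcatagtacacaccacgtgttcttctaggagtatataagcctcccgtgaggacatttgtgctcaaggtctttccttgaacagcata
Krt31: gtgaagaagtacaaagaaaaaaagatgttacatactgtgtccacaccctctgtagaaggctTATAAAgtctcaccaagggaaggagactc

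These windows are chr16:88962874-88962963 (minus strand) for Krtap16-3, chr16:89083934-89084023 (plus) for Krtap6-3, chr11:99635085-99635174 (minus) for Krtap4-2, chr11:99598107-99598196 (minus) for Krtap9-3, chr16:88885090-88885179 (minus) for Krtap19-4 and chr11:100050552-100050641 (minus) for Krt31, a hair keratin. The motif starts 30 bases before the start in Krtap16-3 and Krtap9-3, 31 in Krtap6-3 and 29 in Krt31, and Krtap4-2 holds it at 61 and at 29 bases. Krtap19-4, the called member, does not hold these exact letters in its window, which has the similar stretch tatataag. Variants of the motif were not sought. On the sense strand of the 250 bases before the start, TATAAA was found in 28 of the 36 family members with a RefSeq promoter (77.8%), and in 772 of 13831 measured genes with one (5.58%). TATAAA was also found in 4 of 7 hair shaft keratins with a promoter (57.1%). In the mast cell and the metalloproteinase lists, which had higher medians in week 2, it was in 4 of 13 genes each (30.8%). A match of letters is a description and was not tested as a site.

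The glycine-tyrosine-rich members had the lowest median of the groups, with the Krtap19 family lowest among them. Their 13 genes (families 6, 7, 8, 19, 21 and 22) had a median of -2.55. The 14 genes of families 4, 5, 9, 10, 12 and 17, grouped as very high in cysteine, had a median of -1.80. The 11 genes of the other families, which were not sorted by composition, had a median of -2.08. Among the 13, the 6 Krtap19 genes had a median of -3.74 and the 3 Krtap6 genes -2.55. The rest were Krtap22-2 (-2.47), Krtap21-1 (-2.03), Krtap8-1 (-1.86) and Krtap7-1 (-0.87). Krtap19-2 read 11.34, 10.50 and 10.12 in week 1 and 7.46, 3.60 and 5.80 in week 2, a difference of -5.03 (SE 1.12, adjusted p = 0.162, and 0.0458 without array 116). Krtap16-3, of the other families, read 12.29, 11.97 and 11.17 and then 9.68, 5.55 and 8.46 (-3.92, SE 1.47, adjusted p = 0.181). The lowest week 1 array lay above the highest week 2 array in both.

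The week 2 arrays differed widely among themselves for these genes. Array 224 was the lowest of the 3 in 34 of the 38 genes and array 222 the highest in 31. Krtap4-2, of the group very high in cysteine, read 8.70 on array 222, 6.26 on array 224 and 7.92 on array 225, against 10.30, 10.16 and 9.98 in week 1 (-2.52, adjusted p = 0.178). Leaving out array 224 brought the family median to -1.45. Krtap7-1 overlapped, with 8.99, 9.45 and 9.96 in week 1 and 9.36, 7.26 and 9.15 in week 2. Krtap13 was near the lower end of the intensities on all 6 arrays, from 3.50 to 3.94.

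**Figure D2:**
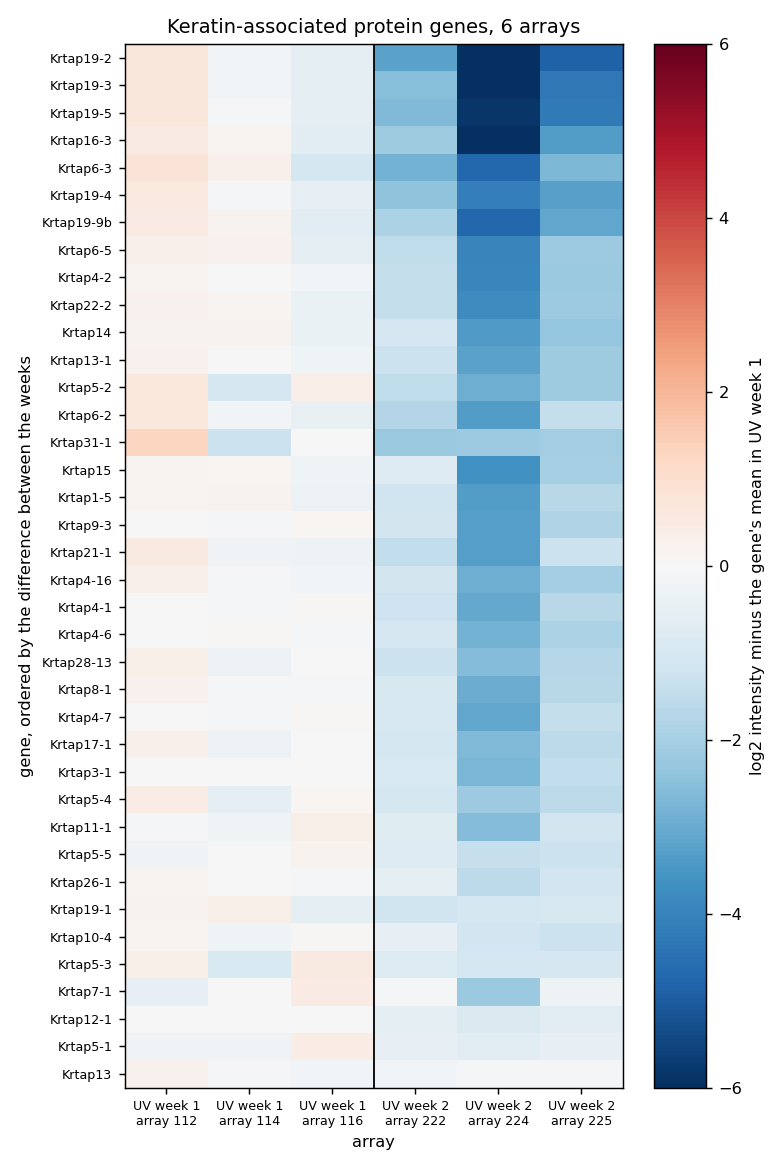
Rows are the 38 keratin-associated protein genes and columns are the 3 UV week 1 and 3 UV week 2 arrays; colour is the log2 intensity minus the gene's mean in UV week 1, with values below -6 drawn at -6. The week 2 columns are blue in nearly every row, deepest on array 224 and palest on array 222.

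By chromosome, 20 of the genes lie on chromosome 16 (median -2.23), 10 on chromosome 11 (-2.01) and 5 on chromosome 7 (-1.16), where the annotation places clusters of this family.

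The keratins of the hair shaft and inner root sheath were lower too. All 12 hair shaft keratins of the list had a lower week 2 mean, 11 of them with no overlap (14.5% of all genes), and the median was -1.28. None passed the test. Krt31, a type I keratin of the hair cortex, read 10.24, 10.09 and 10.19 in week 1 and 9.22, 7.40 and 8.47 in week 2 (-1.81, SE 0.592, adjusted p = 0.178). Krt83, a type II hair keratin, read 8.76, 8.42 and 8.65 and then 7.85, 7.03 and 7.63 (-1.11, SE 0.233, adjusted p = 0.137, and 0.0458 without array 116). Array 224 was again the lowest in both. Krt81 (-1.15), Krt82 (-0.93) and Krt32 (-1.30) showed the same separation of the weeks.

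All 11 inner root sheath genes had a lower mean, 6 with no overlap (14.5% of all genes), with a median of -0.59. The median was -0.29 without array 224 and -1.09 without the arrays of high ratio. The inner root sheath is the layer that moulds the growing hair. Tchh, trichohyalin, which hardens that layer, read 13.31, 13.03 and 13.28 in week 1 and 12.40, 11.13 and 12.10 in week 2 (-1.33, adjusted p = 0.402). Its level in UV week 4 was 7.25, 6.42 and 11.65. Krt28 and Krt26, keratins of the sheath, differed by -1.47 and -1.49 without passing the test.

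Genes that regulate the follicle had a median nearer to 0. It was -0.18 over 21 regulators, with 4 higher, and 1 higher and 2 lower without overlap, against 14.1% and 14.5% of all genes. Without the arrays of high ratio the median was -0.28. Dlx3, a homeobox factor of hair differentiation, read 9.08, 8.70 and 8.47 and then 8.23, 8.21 and 7.89 (-0.64, adjusted p = 0.178). Shh, the hedgehog ligand of the hair matrix, and its receptor Ptch1 differed by -1.0 and -0.73 and overlapped between the weeks. Hoxc13, a direct activator of hair keratin genes, differed by -0.18 and Lef1, the Wnt effector of the matrix, by -0.34, both with overlap.

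Across the whole study the hair genes did not stay at their week 1 level, in irradiated or in non-irradiated skin. The median over the 38 keratin-associated protein genes was 9.88 in non-irradiated week 1 skin, 9.75 in UV week 1, 7.15 in UV week 2, 5.18 in UV week 4, 6.83 in UV week 6 and 5.78 in UV week 8. It was 7.18 in the non-irradiated week 8 skin. UV week 1 thus stood near the control of its week, and the older control stood near UV week 2. By array, the family median was 9.91, 9.67 and 9.72 in UV week 1, 8.35, 6.25 and 7.34 in UV week 2, and 4.53, 4.12 and 6.89 in UV week 4. The part of age in the step was not tested.

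**Figure D3:**
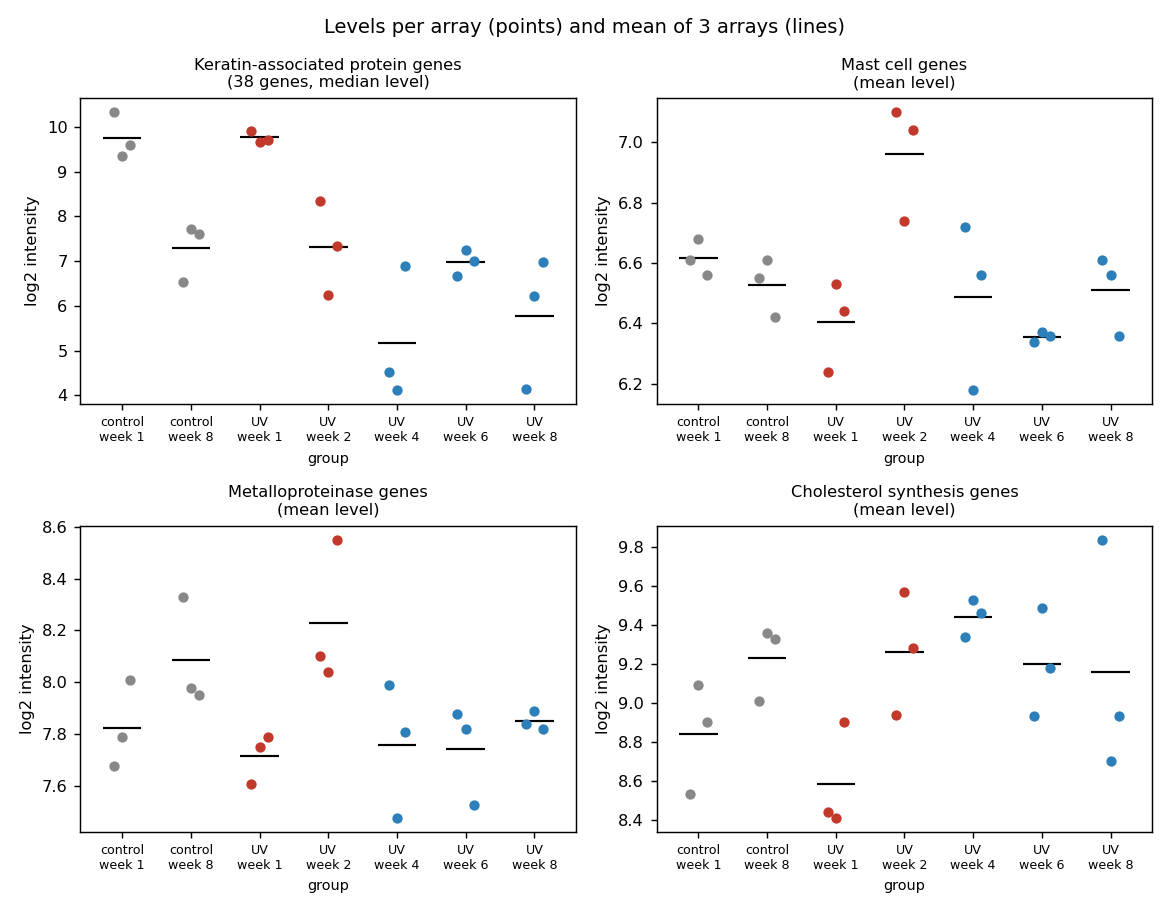
Panels show the log2 intensity of the keratin-associated protein genes (median of 38 genes) and of the mast cell, metalloproteinase and cholesterol synthesis lists (mean over genes) on each of the 21 arrays by group; points are arrays and lines the mean of 3 arrays, with control groups grey, UV weeks 1 and 2 red and later UV weeks blue. The keratin-associated protein genes step down from UV week 1 to UV week 2 and are also lower in the week 8 control than in the week 1 control.

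Most mast cell genes of the list had higher means in week 2. Of the 15 genes of the list, 12 had a higher mean and 8 did not overlap (14.1% of all genes); Tpsab1 alone passed the test (0.0115% of all genes). The median was 0.49, it was between 0.43 and 0.64 in the 14 other settings, and it was 0.53 with the beta-actin ratio as a covariate. The mean level of the list was 6.24, 6.53 and 6.44 on the week 1 arrays and 7.10, 6.74 and 7.04 on the week 2 arrays, with no overlap.

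Further tryptases and chymases had higher means. Tpsb2, the second mast cell tryptase, read 5.61, 6.39 and 6.97 in week 1 and 7.41, 7.41 and 7.88 in week 2 (1.24, SE 0.299, adjusted p = 0.178, and 0.0404 without array 116). Mcpt4, a chymase of connective tissue mast cells, read 4.66, 5.81 and 6.26 and then 6.93, 7.08 and 6.90 (1.39, adjusted p = 0.193). Both separated the weeks, though the week 1 arrays were spread over more than 1 log2 unit. Cma1, a second chymase, read 10.04, 10.22 and 10.19 and then 11.09, 10.46 and 10.90 (0.67, SE 0.182, adjusted p = 0.178). Kit, the receptor for the mast cell growth factor, differed by 0.49 with no overlap. At their dimmer second probe sets Kit differed by -0.21 and Tpsb2 by -0.18, both with overlap. Over all 22 probe sets of the list, 13 were higher and 9 lower.

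Other granule and receptor genes did not pass the test either. Cpa3, the mast cell carboxypeptidase, read 9.68, 10.46 and 9.94 in week 1 and 10.98, 10.29 and 10.69 in week 2 and overlapped (0.63). Hdc, which makes histamine, differed by 0.24. Fcer1a, of the IgE receptor, stood between 3.77 and 5.07, near the lower end of the intensities. Ms4a2 (-0.018), Gata2 (-0.109) and Mcpt1 (-0.142) had lower means, and Tph1 was flat (0.003), all with overlap. Cyp11a1 was higher by 0.80 at its brightest probe set. Its dimmer probe sets were at -0.25 and -0.37, with all week 2 arrays below those of week 1.

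**Figure D4:**
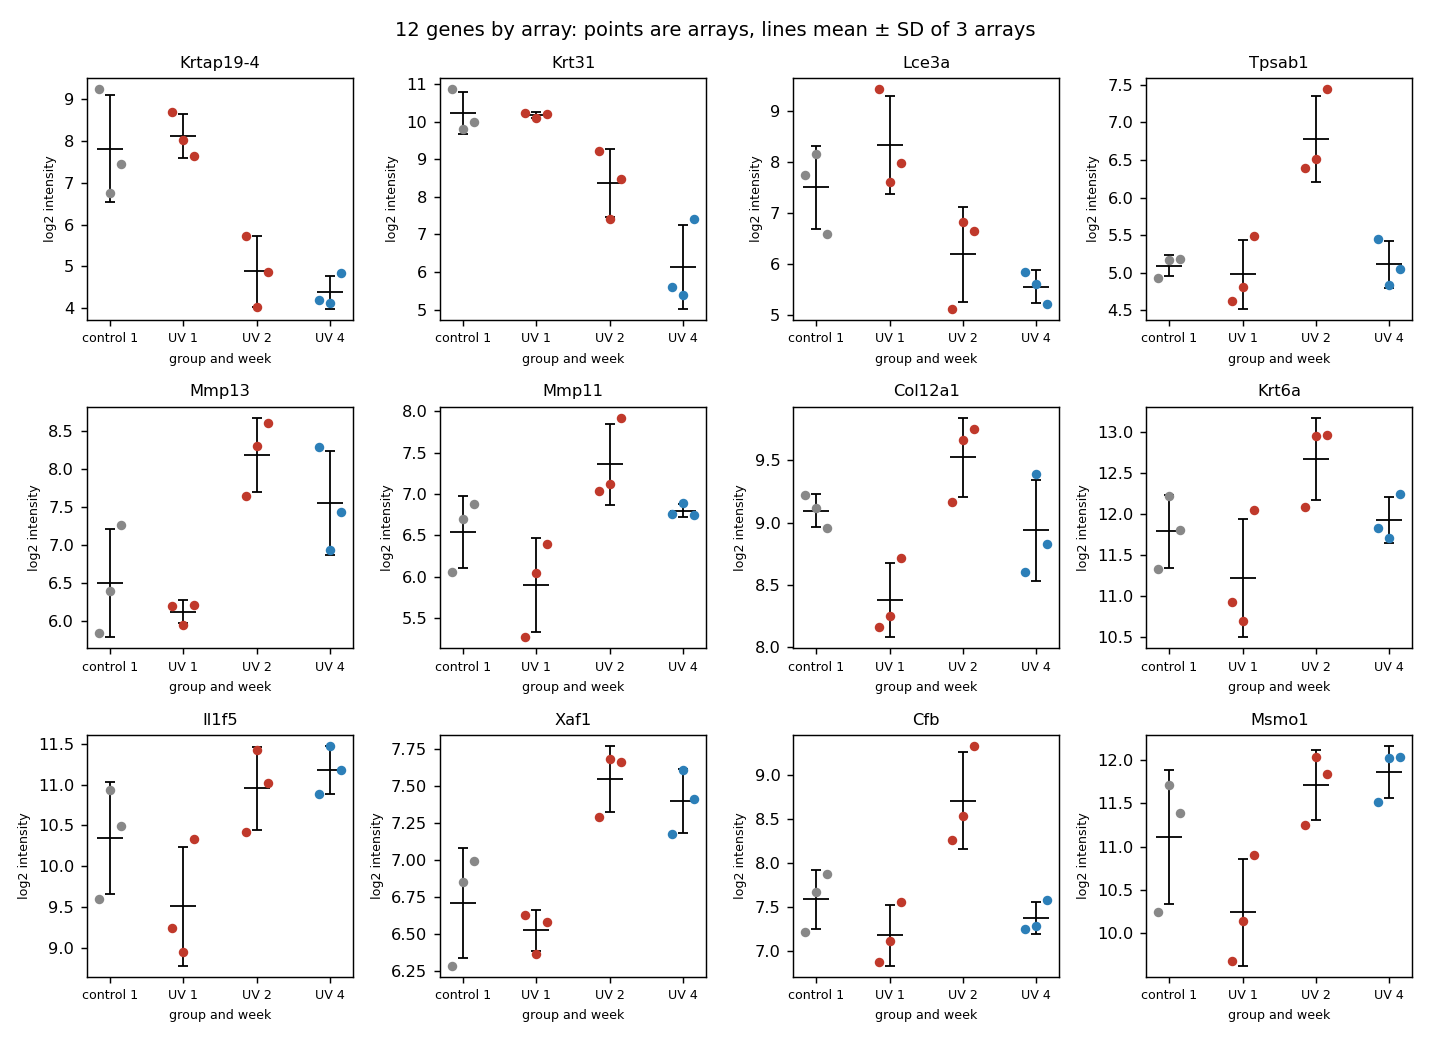
Each panel shows 1 gene, with log2 intensity on the y axis and the groups control week 1, UV weeks 1 and 2, and UV week 4 on the x axis; points are arrays and lines the mean and SD of 3 arrays. Tpsab1 is high in UV week 2 only among these groups, whereas Krt31 is lower again in UV week 4.

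Genes of the extracellular matrix and of its breakdown were higher without passing the test. Of 19 metalloproteinase genes and inhibitors, 14 had a higher mean, 7 did not overlap in that direction (14.1% of all genes) and 1 in the other (14.5%), and the median was 0.69. The median was 0.36 with the beta-actin ratio as a covariate and 0.21 without the arrays of high ratio. Mmp13, the collagenase that cuts fibrillar collagen, was the metalloproteinase with the smallest p. It read 6.20, 5.94 and 6.21 in week 1 and 7.64, 8.31 and 8.61 in week 2 (2.07, SE 0.369, 4.2-fold, adjusted p = 0.0882, and 0.0407 without array 116). The week 1 arrays lay close together, and all week 2 arrays lay above them. Its level in the week 1 control was 5.84, 6.39 and 7.26.

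The 90 bases before the Mmp13 start are shown with the AP-1 motif TGACTCA in capitals, since this motif is a known element of collagenase promoters.

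Mmp13: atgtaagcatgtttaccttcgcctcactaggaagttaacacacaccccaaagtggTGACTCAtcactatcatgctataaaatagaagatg

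The window is chr9:7272424-7272513 on the plus strand of GRCm38.p6, and the motif starts 35 bases before the start. TGACTCA, sought on both strands of the 250 bases before the start, was found in 3 of 13 metalloproteinase genes with a promoter (23.1%) and in 518 of 13831 genes (3.75%). The same letters do not say that a factor was bound.

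Mmp11, stromelysin 3 of fibroblasts, read 5.27, 6.04 and 6.39 in week 1 and 7.04, 7.12 and 7.92 in week 2 (1.46, SE 0.301, adjusted p = 0.133). Mmp9, a gelatinase of leukocytes and keratinocytes, read 6.29, 6.20 and 6.21 and then 6.95, 7.02 and 7.66 (0.98, adjusted p = 0.178). Both separated the weeks, as did Mmp3 (1.34) and the versican-cleaving Adamts15 (1.10). Timp1, the inhibitor of these enzymes, was higher as well, at 8.43, 8.18 and 8.27 and then 8.95, 9.16 and 9.60 (0.95). Mmp2, gelatinase A of fibroblasts, overlapped (0.69).

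Among 26 proteoglycans and glycoproteins of the matrix, 19 had a higher mean and 14 did not overlap (14.1% of all genes), with 2 in the other direction (14.5%). The median was 0.58, and 0.31 without the arrays of high ratio. Tnc, tenascin C of wounds, read 8.88, 9.01 and 9.54 in week 1 and 9.91, 10.46 and 10.99 in week 2 (1.31, SE 0.354, adjusted p = 0.178). Cthrc1, a secreted protein of remodelling stroma, read 7.09, 7.20 and 7.33 and then 8.38, 7.94 and 9.29 (1.32). Fn1, fibronectin, differed by 0.81, Thbs1, thrombospondin, by 1.48 and Bgn, biglycan, by 0.73, all without overlap.

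The collagens had a median of 0.34, with 20 of 23 higher, 6 without overlap (14.1% of all genes). The median was 0.21 with the beta-actin ratio as a covariate and 0.12 without the arrays of high ratio. Col12a1, which binds to the surface of collagen fibrils, read 8.17, 8.25 and 8.72 and then 9.16, 9.66 and 9.75 (1.15, SE 0.244, adjusted p = 0.142, and 0.041 without array 116). Col1a1, of the main fibrils, read 10.13, 10.83 and 11.51 in week 1, overlapped and differed by 0.69, and Col3a1 differed by 0.13. From UV week 2 to UV week 4 the list medians were -0.50 for metalloproteinases, -0.64 for the glycoproteins and -0.48 for collagens.

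Wound keratins were had higher means with a spread that followed array 116, and none of the epidermal genes below passed the test. Krt16, a keratin of activated epidermis, read 7.88, 7.64 and 9.88 in week 1 and 9.63, 11.79 and 11.52 in week 2 (2.51, SE 0.805, adjusted p = 0.178). Array 116 lay above array 222, so the weeks overlapped. Krt6a, its partner, read 10.93, 10.70 and 12.05 and then 12.09, 12.95 and 12.96, a difference of 1.44 (adjusted p = 0.178, and 0.046 without array 116) with array 116 just under array 222. Krt17 differed by 1.26 and Krt6b by 0.75. The median of the 4 was 1.35, and it was 0.79 with the beta-actin ratio as a covariate, 0.57 without the arrays of high ratio and 1.77 without array 116.

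Other epidermal genes did not move one way. Of 9 keratins of resting epidermis, 7 had a higher mean. Without overlap, 1 was higher and 1 lower, against 14.1% and 14.5% of all genes. Their median was 0.24, and it was 0.069 with the beta-actin ratio as a covariate and 0.043 without the arrays of high ratio. Krt77, a keratin of the suprabasal epidermis, was the lowest of them at -2.19. It read 11.25, 10.95 and 9.24 in week 1 and 9.66, 8.84 and 6.38 in week 2, with array 116 below array 222. The week 1 control had 12.09, 12.94 and 12.66. The 38 genes of the cornified envelope, the protein shell of dead keratinocytes, had a median of 0.15, with 25 higher. Of the 38, 2 were higher and 7 lower without overlap, against 14.1% and 14.5% of all genes, and the median was 0.005 with the beta-actin ratio as a covariate and -0.043 without the arrays of high ratio. Lce3a, a late envelope protein, read 9.42, 7.60 and 7.98 and then 5.13, 6.82 and 6.65 (-2.13, adjusted p = 0.18). Lce3f (-1.78) and Sprr2f (-1.72), other envelope genes, also had lower week 2 arrays throughout. Tgm5, a transglutaminase of the envelope, differed by 1.07 with overlap.

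Of 27 epidermal proteases and inhibitors, 22 had a higher mean and 3 did not overlap (14.1% of all genes), with a median of 0.64. The median was 0.34 with the beta-actin ratio as a covariate and 0.32 without the arrays of high ratio. Klk6 and Klk8, kallikreins that act in shedding of the surface, differed by 1.08 and 1.60. Serpinb12, an epidermal serpin, read 5.39, 4.83 and 7.55 in week 1 and 7.22, 8.84 and 9.51 in week 2 (2.60, adjusted p = 0.178, and 0.0458 without array 116). Here too array 116 read like week 2.

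Interferon-stimulated genes had slightly higher means in week 2, and none passed the test. Of 36 genes, 30 had a higher mean, 14 did not overlap (14.1% of all genes) and 1 did not overlap in the lower direction (14.5%), and the median was 0.32. It was 0.19 with quantile normalization and 0.52 without the arrays of high ratio. Their median against the week 1 control was 0.43 in UV week 1 and 0.73 in UV week 2, and both comparisons share the control arrays. Xaf1, an interferon-induced promoter of apoptosis, read 6.63, 6.37 and 6.58 and then 7.29, 7.68 and 7.66 (1.02, SE 0.227, adjusted p = 0.162, and 0.046 without array 116). Irgm1, an immunity GTPase, read 7.44, 7.66 and 7.52 and then 8.17, 8.16 and 8.25 (0.66, SE 0.198, adjusted p = 0.178). In both the arrays of a week lay close together. Oasl2 (0.98) and Bst2 (0.98), antiviral effectors, had the weeks apart as well.

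None of the inflammatory genes below passed the test. The IL-1 family and neutrophil list had 14 of 19 genes higher, 6 without overlap (14.1% of all genes), and a median of 0.49, which was 0.28 without array 116. Il1f5, the antagonist of the IL-36 receptor, differed by 1.44, and the IL-36 cytokines Il1f6 and Il1f9 by 1.19 and 1.43. Il1b read 6.72, 7.54 and 6.74 in week 1 and 7.77, 7.52 and 8.44 in week 2, so the weeks overlapped (0.91). Cfb, complement factor B, read 6.88, 7.11 and 7.56 and then 8.27, 8.53 and 9.32 (1.52, SE 0.348, adjusted p = 0.163, and 0.0458 without array 116). The acute phase and antimicrobial list had 11 of 18 genes higher, 5 higher and 1 lower without overlap (14.1% and 14.5% of all genes). Its median was 0.11 (0.22 without array 116) and its lowest difference -1.38. Of its higher members, Lcn2, an antibacterial protein of neutrophils and epithelium, differed by 1.57, and Reg3g, an epithelial lectin, by 1.26. C1qb, of macrophages, was lower by -0.78 at this probe set, and its 3 probe sets ranged from -0.78 to 1.25.

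Leukocyte markers gave a mixed picture. The macrophage list had a median of 0.24 (17 of 20 higher) and a lowest difference of -0.78. Without overlap, 2 of its genes were higher and 2 lower, against 14.1% and 14.5% of all genes. Lyz2 differed by 0.91 without overlap and Cd68 by 1.36 with overlap. The chemokine and T cell list had a median of -0.04 (7 of 15 higher). That median was -0.13 without array 116, 0.17 with the beta-actin ratio as a covariate and 0.38 without the arrays of high ratio. The B and plasma cell list had a median of -0.12. This became -0.21 without array 116, 0.007 with the beta-actin ratio as a covariate and 0.17 without the arrays of high ratio. In this list 3 of 7 genes were higher, 2 without overlap (14.1% of all genes). Of these, Igha, the IgA heavy chain, read 7.18, 7.11 and 7.08 and then 8.23, 8.61 and 8.90 (1.46, SE 0.383, adjusted p = 0.178), and Jchain, which joins IgA, was higher by 0.91. The week 8 control had an Igha mean of 9.09.

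Genes of cholesterol synthesis all had higher means, and none passed the test. The 20 genes had a median of 0.55, and 9 did not overlap (14.1% of all genes). The median was 0.36 with the beta-actin ratio as a covariate and 0.34 without the arrays of high ratio. Msmo1, a sterol demethylase, read 9.69, 10.14 and 10.91 in week 1 and 11.25, 12.03 and 11.85 in week 2 (1.47, SE 0.43, adjusted p = 0.178, and 0.0472 without array 116). Its week 1 control arrays read 10.24, 11.71 and 11.38, so that UV week 2 lay near the higher control arrays. Idi1 (0.93), Cyp51 (0.78) and Sqle (0.95), other enzymes of the pathway, had no overlap either.

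Barrier lipid genes followed, none past the threshold, with 18 of 21 higher, 9 without overlap (14.1% of all genes) and a median of 0.39. The median was 0.61 without array 116, 0.22 with the beta-actin ratio as a covariate and 0.12 without the arrays of high ratio. Elovl6, which lengthens fatty acids, read 11.17, 10.92 and 11.86 and then 12.39, 13.04 and 12.99 (1.49, SE 0.36, adjusted p = 0.178). Far2, which makes wax alcohols, differed by 1.63 and Elovl3, an elongase of the sebaceous gland and hair follicle, by 1.44. Cyp17a1, a steroid hydroxylase, read 7.16, 6.94 and 7.38 and then 8.24, 9.39 and 8.95 (1.70, SE 0.384, adjusted p = 0.163), and it stayed higher in UV week 4 at 9.04, 9.76 and 9.72.

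Most lists for other tissues and responses had medians near 0. The median was 0.18 for 26 skeletal muscle genes, none without overlap, against 14.1% of all genes higher and 14.5% lower. It ran from -0.25 to 0.53 over the settings. It was -0.10 for 18 adipocyte genes, -0.12 for 9 Schwann cell genes and -0.09 for 10 melanocyte genes. The endothelial list had a median of 0.17, with 10 of 16 higher, 1 lower without overlap (14.5% of all genes) and a lowest difference of -0.67. Its 4 genes higher without overlap (14.1% of all genes) were Pecam1 (1.21), Vwf (1.02), Tie1 (1.05) and Emcn (1.17). Smooth muscle genes (0.51) and endoplasmic reticulum chaperones (0.40) had higher medians, 0.19 and 0.25 without the arrays of high ratio. DNA repair (0.01), immediate early (-0.04) and heat shock genes (-0.07) had medians close to that of all genes. Cell cycle genes had a median of 0.20, with Pcna, the DNA polymerase clamp, at 0.49, and p53 targets a median of 0.20, with Mdm2, which degrades p53, at 0.65.

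**Figure D5:**
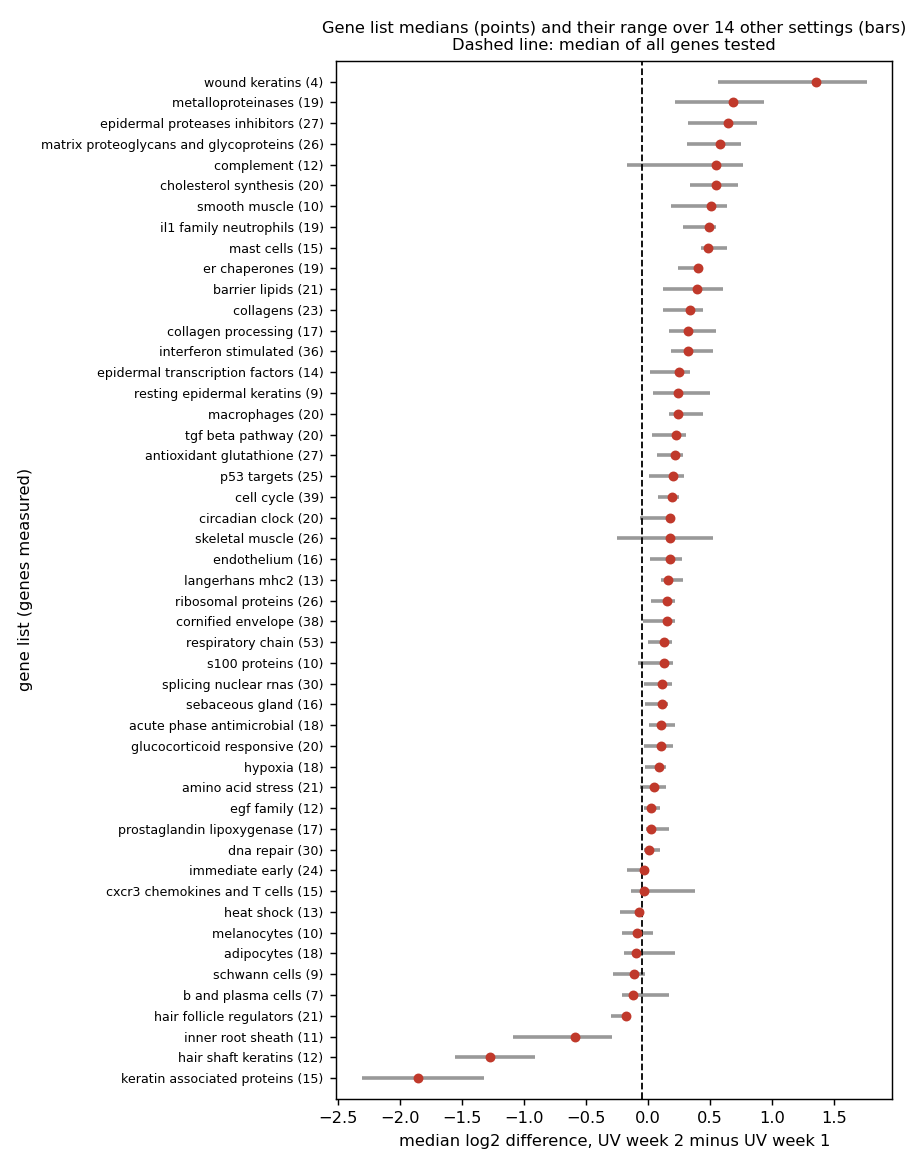
Points are the median log2 difference of UV week 2 minus UV week 1 over the genes of each list (number measured in brackets), bars run from the lowest to the highest median over the settings of the test, and the dashed line is the median of all genes. The hair lists lie lowest, with the 15 keratin-associated protein genes of the list at -1.86 against -2.03 for all 38, and wound keratins highest at 1.35.

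Other genes with at least a 2-fold difference, no overlap and a small p did not pass. Higher in week 2 were Hs6st2, which sulfates heparan sulfate (1.08, adjusted p = 0.0991), Tlr13, an endosomal receptor for bacterial RNA (1.58), Cd300c2, a myeloid receptor (1.03), Ccl27a, a keratinocyte chemokine (1.02), and Gm45351 (1.17). Abtb2 was the lower gene of smallest p after Krtap19-4. It read 9.84, 10.11 and 9.44 in week 1 and 8.71, 8.40 and 8.24 in week 2 (-1.34, SE 0.237, adjusted p = 0.0882). Adam23 (-1.25, adjusted p = 0.121), Psors1c2 (-1.57), Adh6b (-1.70), Cybrd1, a ferric reductase (-1.35), Lyg2, a lysozyme of the goose type (-1.64), Opcml (-1.07), Cox15 (-1.10), Rhof (-1.06) and 5031426D15Rik (-1.07) were also lower on all week 2 arrays. Psors1c2, Adh6b and Cybrd1 had lower means still in UV week 4, while Abtb2 read 9.27, 8.50 and 9.08 there.

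UV week 2 was also set against the mean of UV weeks 1 and 4. Only Tpsab1 rose in this contrast among 40540 probe sets (0.00247%) and none fell, with 2726 (6.72%) higher and 2975 (7.34%) lower at an unadjusted p under 0.05. Tpsab1 read 5.45, 4.83 and 5.05 in UV week 4 and 4.93, 5.17 and 5.18 in the week 1 control, so that UV week 2 lay above these groups. Its contrast was 1.74 (SE 0.231, adjusted p = 0.0207, limma), with the other groups near the lower end of the intensities.

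The genes that the study measured by quantitative PCR were chosen on these samples and are no independent evidence. Of them, 4 are described here, and gasdermin C and Isg15 are not. Tesc, a calcium-binding protein, read 9.27, 8.87 and 8.54 in week 1 and 8.32, 7.62 and 7.63 in week 2 (-1.04, adjusted p = 0.178). Saa3, an acute phase protein, differed by 0.95 without overlap. Klf4, a factor of epidermal differentiation, differed by 0.93 and S100a3, a hair cuticle protein, by -0.34, both with overlap. S100a3 read 6.77, 6.78 and 8.46 in week 1, and the sign of its difference turned to 0.23 without array 116.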

How the data were processed

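Total RNA from mouse skin was hybridised to 21 Affymetrix arrays in 7 groups of 3. The intensity values analysed here are those deposited by the authors, on a linear scale; the study's methods name the MAS5 preprocessor, while the submitters' processing notes name RMA, and which of them made these values is not settled. The scaling is that of the authors and no depth applies to arrays, whose number (3 per group) limits the precision. Values under an intensity floor of 1 would be set to 1, and log2 was taken. Array control probe sets (64) were left out, and probe sets had to reach the 20th percentile of their array on at least 1 array, which left 40540 of 45101. limma 3.58.1 in R 4.3.3 was fitted with 1 mean per group (14 residual degrees of freedom) and the Benjamini-Hochberg adjustment ran across every tested probe set. A call needed 2-fold and an adjusted p of at most 0.05. The script was tested on simulated data. Each gene was represented by the brightest of its probe sets with 1 symbol, by mean over all arrays.

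Genes were named by rule: up to 15 in each direction among called genes without overlap, filled with the smallest p among those of 2-fold and no overlap; up to 4 of each gene list by p; and genes the study names. Other genes printed were chosen after their values were seen. The comparison, the gene lists and the named genes were chosen with earlier results of these data known, and support no list as independent evidence. Lists are described by counts and medians without a test. Promoter sequences and their coordinates are RefSeq's on GRCm38.p6, matched by symbol. The alternatives were no filter, the 6 arrays alone, quantile normalization, an intensity trend, 3'/5' ratios as covariates, without arrays of ratio above 4, array weights, each array left out, 1 probe set per gene and no minimum fold.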

Additional observations from a re-analysis of the deposited data

Results flagged for a closer look

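Tpsab1, the mast cell tryptase, differed between UV week 2 and the mean of UV weeks 1 and 4 by 1.74 (SE 0.231, adjusted p = 0.0207, limma), which tests whether the step into week 2 and the step out of it are unequal. The 3 week 2 arrays read 6.39, 6.51 and 7.44, above all 3 arrays of UV week 1 and of UV week 4. Those UV week 1 and UV week 4 values lie near the lower end of the intensities, where a difference is less exact. Without array 114 or array 225 no probe set was called in this contrast.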

How the results depend on the processing

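The 119 genes and 59 lists were recomputed under 14 other settings, 1666 values for genes and 826 for lists. Of the gene values, 1519 kept their direction and their side of the threshold, 124 passed it newly, 16 no longer did and 7 turned sign. The probe sets called higher in week 2 (3) were 0 in the fit to the 6 arrays alone, with quantile normalization and without the arrays of high beta-actin ratio, 1 with 1 probe set per gene, 1488 with array weights, and 0 to 437 with single arrays left out. Those called lower (1) were 0 without the filter, with quantile normalization, with the intensity trend and without the arrays of high ratio, 165 with array weights, and 0 to 78 with single arrays left out. For UV week 2 against the mean of UV weeks 1 and 4, the higher calls (1) were 2 with either ratio as a covariate, 0 without the arrays of high ratio, 394 with array weights and 0 to 3 with single arrays left out, and the lower calls (0) were 12 with array weights. This contrast cannot be given from the 6 arrays alone. Signs turned for Krt10 (-0.084) and Klf4 (-0.027) without the arrays of high ratio, for Krtap13 with quantile normalization (0.019) and without the arrays of high ratio (0.047), with a range from -0.20 to 0.014 with single arrays left out, and for S100a3 without array 116 (0.23) and without array 224 (0.047), with a low of -0.62 among single arrays left out (array 112). Of the list values, 63 moved by more than the spread between replicates. The lowest and highest medians were -1.56 and -0.91 for hair shaft keratins, 0.21 and 0.94 for metalloproteinases, 0.31 and 0.75 for matrix glycoproteins, and 0.57 and 1.77 for wound keratins. The cause was not tested. Leaving out the arrays of high ratio leaves 13 arrays and 1 array in UV week 1, array 116, assumed to vary like the other groups. No paired analysis was possible because the groups share no array numbers.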
